A study of Penicillium oxalicum with 9 samples.

Results

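The genes examined were 3 of the 9907 in the deposited expression table of the filamentous fungus Penicillium oxalicum: cdt-c (PDE_00607), CdtD (PDE_00753) and cdt-g (PDE_09395). They were chosen by identifier, and they are the 3 genes of the table described as cellodextrin transporters. Transcript levels were measured in mycelia of a strain with the regulator gene clrB deleted, a strain with rcoA deleted and the wild type 114-2, with 3 libraries of each. All strains were grown from spores for 22 h at 30 °C with 2% glucose, then washed and kept for another 24 h in a Mandel's medium whose carbon was cellulose and wheat bran (1% of each). The sources used here do not say whether a deletion strain was 1 transformant, nor whether its 3 libraries were grown as separate cultures. The p-values below therefore measure only how far these libraries differed, and that spread may be technical.

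Cellodextrins are the short glucose chains that cellulases release from cellulose. Fungi take them up through sugar transporters of the major facilitator superfamily and cut them to glucose inside the cell with beta-glucosidases, and the incoming cellodextrins are also part of how the fungus senses cellulose. In P. oxalicum CdtC and CdtD have been described as cellodextrin transporters with overlapping roles in the induction of cellulases, and CdtG as a further member of the group. ClrB is a transcription factor that activates cellulase genes. RcoA belongs to the Tup1 family of transcriptional corepressors.

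The names rest on the descriptions deposited beside the values. Those of cdt-c and cdt-g come from entries of Penicillium decumbens, and that of CdtD from a putative transporter of Aspergillus calidoustus. All 3 genes share the ontology terms for membrane and transmembrane transporter activity. All 3 also carry the orthology label of guanine deaminase, which 14 genes of the table carry, 9 of them together with the label of a sugar:H+ symporter. CdtD and cdt-g have the symporter label too, and cdt-c does not. These labels were assigned automatically and were not tested here.

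Values are FPKM, the fragments of a gene corrected for transcript length and for the size of the library, as the authors computed them. A log2 change is a difference of mean log2(FPKM + 1) between strains from a limma fit, with its standard error (SE), and a gene was called where its Benjamini-Hochberg adjusted p over all 9097 tested genes was under 0.05. A fold is a ratio of mean FPKM. FPKM allows levels of different genes to be compared per length, but the protocol made tags from a fixed site of each transcript, so levels set across genes are uncertain to that extent. In bulk mycelium, fewer cells that express a gene and less RNA per cell cannot be told apart.

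The libraries carried their strain labels in the deleted genes. The gene described as ClrB (PDE_05999) had 0.11, 0.11 and 0.08 FPKM in the clrB deletion, against 163.33 to 200.22 FPKM in the wild type. PDE_01024, described as TUP1, had 2.08 to 3.38 FPKM in the rcoA deletion, against 65.53 to 70.72 FPKM in the wild type. Which identifier is rcoA is not stated in the labels. Replicate 2 of the clrB deletion stood apart: log2 values correlated at 0.946 and 0.957 with replicates 1 and 3, which correlated with each other at 0.991. Values without this library stand beside the changes that it moved by more than 1.5 times.

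cdt-c was among the most abundant transcripts of the table in the rcoA deletion and the wild type and a minor one in the clrB deletion. Its 3 clrB deletion libraries read 15.07, 14.74 and 14.67 FPKM. Its rcoA deletion libraries read 1460.83, 1636.15 and 1809.40 FPKM, and its wild type libraries 3105.78, 2693.72 and 2010.00 FPKM. The strains did not overlap, and the wild type was highest and the clrB deletion lowest. The position of cdt-c among the 9907 genes, counted from the highest level, was between 6294 and 6349 in the clrB deletion, between 45 and 69 in the rcoA deletion and between 25 and 45 in the wild type.

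CdtD followed the same order of strains with a smaller distance between them. Its clrB deletion libraries read 136.20, 453.38 and 152.82 FPKM, its rcoA deletion libraries 510.11, 536.92 and 557.29 FPKM and its wild type libraries 1263.50, 1066.24 and 790.58 FPKM. The strains again did not overlap, although replicate 2 of the clrB deletion lay close to the rcoA deletion. CdtD was 4th to 7th among the 68 listed sugar transporters in every library.

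cdt-g was far less abundant than the other members in the rcoA deletion and the wild type. Its clrB deletion libraries read 29.07, 33.05 and 28.72 FPKM, its rcoA deletion libraries 18.72, 22.66 and 22.36 FPKM and its wild type libraries 29.55, 27.69 and 29.74 FPKM. The rcoA deletion lay below both other strains without overlap, and the clrB deletion and the wild type overlapped. In the clrB deletion cdt-g was above cdt-c in each library, whereas in the rcoA deletion and the wild type it was below cdt-c in each library.

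**Figure D1:**
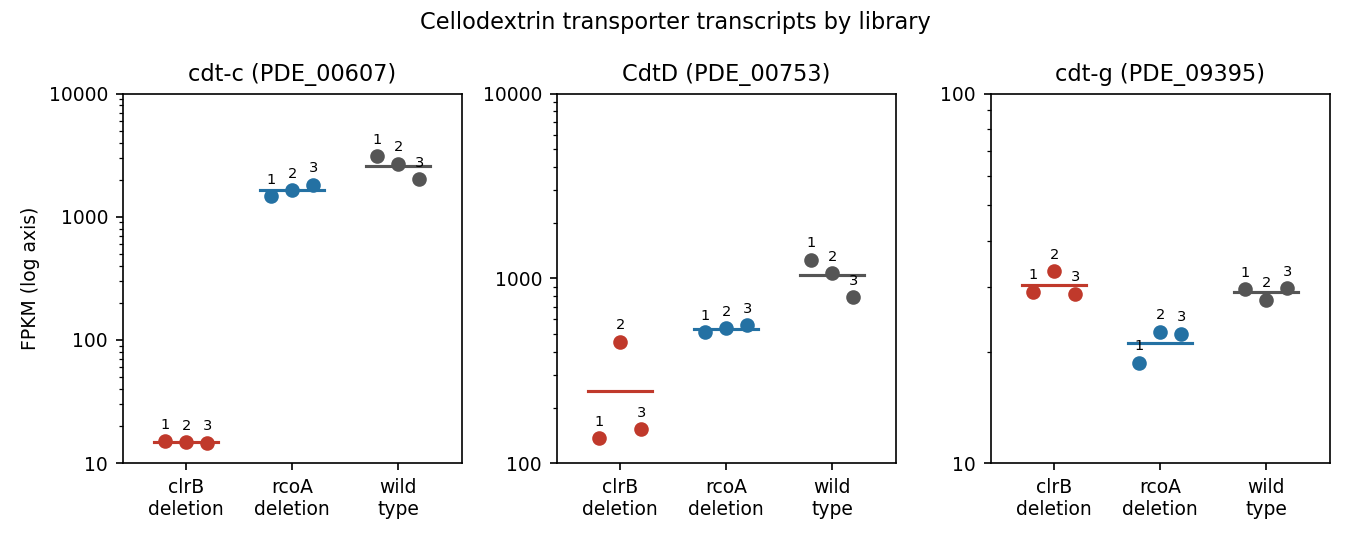
FPKM (log axis, a different range in each panel) of cdt-c, CdtD and cdt-g in the 3 libraries of the clrB deletion, the rcoA deletion and the wild type; points are libraries with their replicate number and bars are strain means. cdt-c sits near 15 FPKM in all clrB deletion libraries and at 1460.83 FPKM or more elsewhere, replicate 2 of the clrB deletion stands apart for CdtD, and cdt-g lies between 18 and 34 FPKM in all libraries.

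The comparison of the clrB deletion with the wild type asks which transcripts depend on this activator on a cellulosic medium. cdt-c fell to 14.8 ± 0.214 FPKM in the clrB deletion, against 2603 ± 553 FPKM in the wild type (SD, n = 3 each), which is 176-fold lower. The log2 change was -7.34 (SE 0.16, 95% interval -7.70 to -6.98), with an adjusted p of 2.26e-08 in the limma fit, and cdt-c was 5th among the 9097 tested genes by size of fall. Without replicate 2 of the clrB deletion the fold was 175. The 3 libraries of the clrB deletion differed by an SD of 1.44% of their mean.

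CdtD fell to 247 ± 179 FPKM in the clrB deletion, against 1040 ± 238 FPKM in the wild type (SD, n = 3 each), which is 4.20-fold lower. Its log2 change was -2.27 (SE 0.40, 95% interval -3.17 to -1.36, limma adjusted p = 0.00655). Without replicate 2 of the clrB deletion, which stands apart, CdtD was 7.20-fold lower, with a log2 change of -2.81 and an adjusted p of 1.05e-05.

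cdt-g had 30.3 ± 2.41 FPKM in the clrB deletion and 29.0 ± 1.13 FPKM in the wild type (SD, n = 3 each) and was not called. Its log2 change was 0.06, with a 95% interval from -0.17 to 0.29 and a limma adjusted p of 0.708. The sign of this change turned with the scaling of the libraries and without replicate 2 of the clrB deletion. Of the 3 transporters, then, 2 were called lower and 0 higher, where 8.32% of all tested genes were called lower and 13.5% higher. The strains did not overlap for 2 of the 3, as for 38.9% of all tested genes.

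The comparison of the rcoA deletion with the wild type asks the same of the corepressor RcoA. All 3 transporters were lower in the rcoA deletion, by less than cdt-c and CdtD were in the clrB deletion, and 2 of them were called. cdt-c fell to 1635 ± 174 FPKM in the rcoA deletion, against 2603 ± 553 FPKM in the wild type (SD, n = 3 each), a log2 change of -0.65 (SE 0.16, 95% interval -1.02 to -0.29, limma adjusted p = 0.00591). cdt-g fell to 21.2 ± 2.19 FPKM in the rcoA deletion, against 29.0 ± 1.13 FPKM in the wild type (SD, n = 3 each), a log2 change of -0.44 (SE 0.10, 95% interval -0.66 to -0.21, limma adjusted p = 0.00441).

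CdtD stood at 535 ± 23.7 FPKM in the rcoA deletion and 1040 ± 238 FPKM in the wild type (SD, n = 3 each), a fold of 1.94. Its log2 change of -0.93 (SE 0.40, 95% interval -1.83 to -0.03) was larger than that of cdt-c but was not called (limma adjusted p = 0.0655). The fit shares 1 estimate of the spread among the strains, and the CdtD values of the clrB deletion entered it. Without replicate 2 of the clrB deletion the SE was 0.16 and the adjusted p 0.000606, without replicate 1 of the clrB deletion the adjusted p was 0.0473, and with the rcoA deletion and the wild type alone it was 0.00147. Called lower were 2 of 3 transporters, beside 34.1% of all tested genes called lower and 30.4% called higher. The strains did not overlap for all 3, as for 73.9% of all tested genes, so neither share sets the transporters apart in this strain.

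The comparison of the clrB deletion with the rcoA deletion tests the difference between the deletions directly. Both are compared with the same wild type libraries above, so those changes are not independent of each other. cdt-c was 110-fold lower in the clrB deletion than in the rcoA deletion, with a log2 change of -6.69 (SE 0.16, 95% interval -7.05 to -6.32, limma adjusted p = 9.5e-09), the 3rd largest fall of the 9097 tested genes. CdtD was 2.16-fold lower, with a log2 change of -1.33 (SE 0.40, limma adjusted p = 0.0172). Without replicate 2 of the clrB deletion CdtD was 3.70-fold lower with an adjusted p of 1.81e-05, and without replicate 1 or replicate 3 of the clrB deletion it was not called, with adjusted p of 0.0578 and 0.0629.

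cdt-g went the other way, at 1.43-fold higher in the clrB deletion than in the rcoA deletion (log2 change 0.49, SE 0.10, 95% interval 0.27 to 0.72, limma adjusted p = 0.00253). Thus 2 transporters were called lower and 1 higher, beside 24.9% and 35.2% of all tested genes. The strains did not overlap for all 3, as for 65.5% of all tested genes.

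The proportions of the transporters to each other were also compared between strains. The ratio of cdt-c to CdtD was 0.111, 0.0325 and 0.0960 in the clrB deletion libraries, against 2.86, 3.05 and 3.25 in the rcoA deletion and 2.46, 2.53 and 2.54 in the wild type. A length factor of a gene cancels when such a ratio is compared between strains. The mean log2 ratio was -3.83 ± 0.97 in the clrB deletion and 1.33 ± 0.03 in the wild type (SD, n = 3 each), a difference of -5.16 on the log2 scale, or -4.61 without replicate 2 of the clrB deletion.

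Across the wild type libraries the SD of the level was 21.3% of the mean for cdt-c and 22.8% for CdtD, and both were lowest in replicate 3, so that their ratio varied less than either level. In the rcoA deletion the mean log2 ratio was 1.61 ± 0.09, higher than in the wild type by 0.28. The ratio of cdt-c to cdt-g was 0.518, 0.446 and 0.511 in the clrB deletion libraries, against 78.0, 72.2 and 80.9 in the rcoA deletion and 105, 97.3 and 67.6 in the wild type. Between the rcoA deletion and the wild type it differed by -0.20 on the log2 scale and the strains overlapped (exact two-sided permutation p = 0.4).

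The ratio of CdtD to cdt-g was 4.69, 13.7 and 5.32 in the clrB deletion libraries, against 27.2, 23.7 and 24.9 in the rcoA deletion and 42.8, 38.5 and 26.6 in the wild type. With 3 libraries against 3 the exact two-sided permutation test cannot give a p below 0.1. In 7 of the 9 ratio comparisons p was 0.1, or 0.129 after adjustment over the 9, and the strains did not overlap. The 9 share genes and libraries and are not independent of each other. For levels of single genes, the strains did not overlap for 38.9% to 73.9% of all tested genes, by comparison. For CdtD to cdt-g between the rcoA deletion and the wild type the exact permutation p was 0.2.

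**Figure D2:**
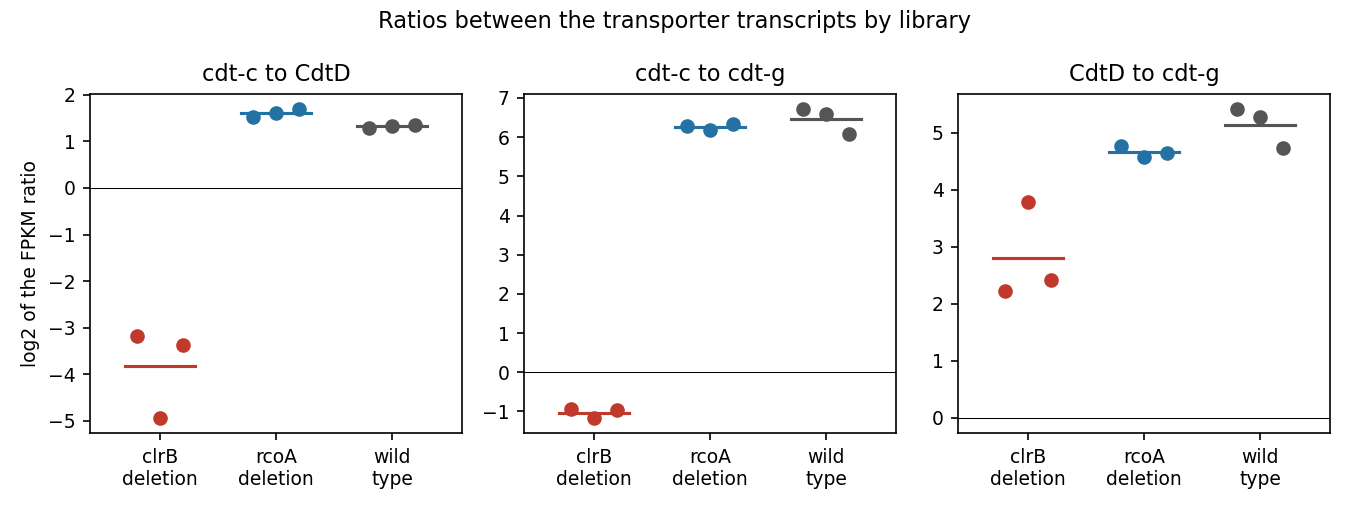
Log2 of the FPKM ratio of each pair of transporters in the 3 libraries of the clrB deletion, the rcoA deletion and the wild type, replicates 1 to 3 from left to right; bars are strain means and the line at 0 marks equal FPKM. cdt-c lies above CdtD in the rcoA deletion and the wild type and below it in each clrB deletion library, while CdtD lies above cdt-g in all 9 libraries.

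Replicate 2 of the clrB deletion differed from replicates 1 and 3 of that strain in CdtD and not in cdt-c. Its CdtD level was 3.14 times the mean of the other 2 libraries, its cdt-c level 0.991 times and its cdt-g level 1.14 times. The cellulose use genes, a list by identifier of 9 genes for cellulases, a cellulose monooxygenase and beta-glucosidases, were also split. Cel7A-2 (PDE_07945), a cellobiohydrolase that works along cellulose chains, Cel7B (PDE_07929), an endoglucanase, and the GH45 protein PDE_07928 were 2.70, 2.64 and 3.87 times the mean of replicates 1 and 3. Cel6A (PDE_07124), the second cellobiohydrolase, stood at 0.985 times and the monooxygenase Cel61A (PDE_05633) at 0.640 times.

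Of the 9 genes, 5 were over 2 times the higher of replicates 1 and 3, as were 12 of 63 tested sugar transporters and 3.66% of all tested genes. What set this library apart was not tested.

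The wild type libraries varied too. Replicate 3 had 0.647 times the cdt-c and 0.626 times the CdtD of replicate 1, and was lowest for both. It was also lowest for 8 of the 9 cellulose use genes and for 31.6% of all tested genes, and its cdt-g level was 1.01 times that of replicate 1. ClrB itself stood at 0.853 times. In the rcoA deletion, replicate 1 was lowest for cdt-c, CdtD and cdt-g, for 8 of the 9 cellulose use genes and for 47.7% of all tested genes. The part of these differences in the results was not tested.

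**Figure D3:**
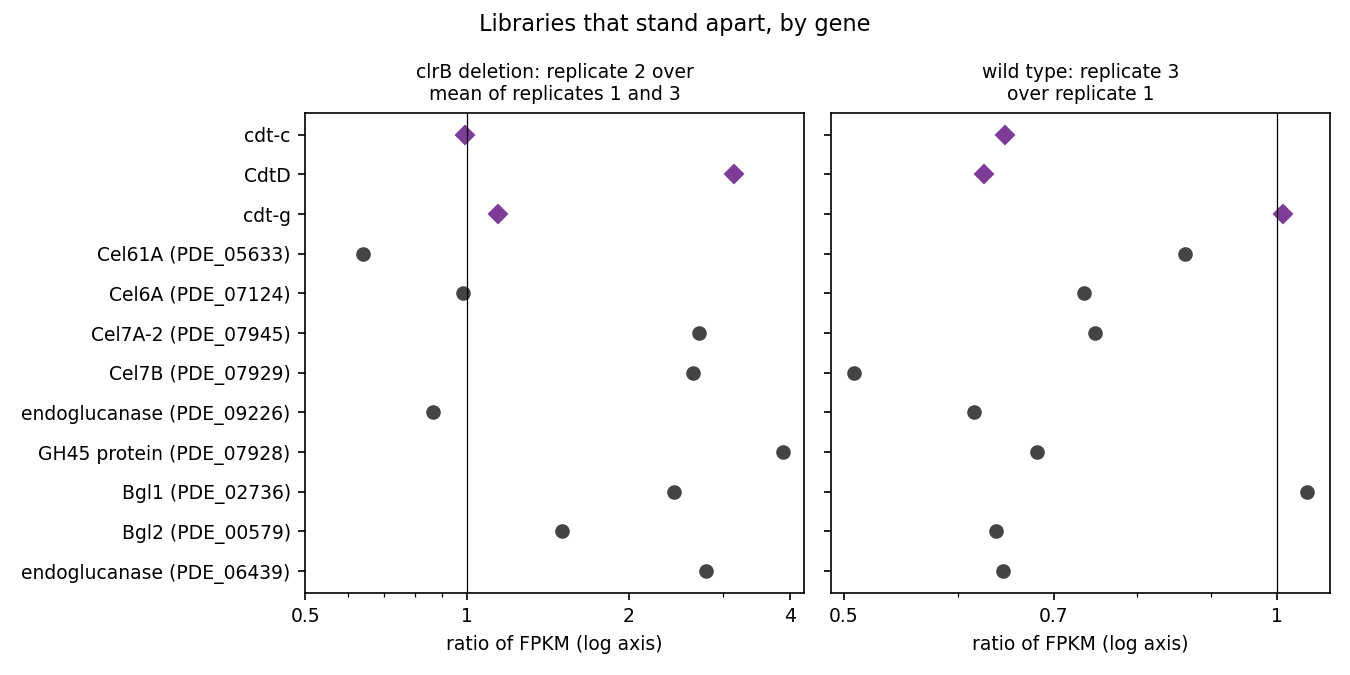
Ratios of FPKM (log axes) for the 3 transporters (purple diamonds) and the 9 cellulose use genes (grey circles): replicate 2 of the clrB deletion over the mean of its replicates 1 and 3 on the left, replicate 3 over replicate 1 of the wild type on the right. CdtD lies at 3.14 on the left with Cel7A-2, Cel7B and the GH45 protein, cdt-c lies at 0.991 with Cel6A, and on the right cdt-c lies at 0.647 and CdtD at 0.626.

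The cellulose use genes give the pathway in which these transporters act. In the clrB deletion 8 of the 9 were called lower and 0 higher, beside 8.32% and 13.5% of all tested genes. The median log2 change of the list was -5.54, against 0.08 over all tested genes. The counts of the list were the same without replicate 2 of the clrB deletion, and the medians were -6.18 and 0.10. Bgl2 (PDE_00579), a GH1 beta-glucosidase, fell to 7.93 ± 1.99 FPKM in the clrB deletion, against 991 ± 218 FPKM in the wild type (SD, n = 3 each), or 125-fold. Cel6A fell 323-fold. Bgl1 (PDE_02736), the other beta-glucosidase of the list, was the gene not called, at 906 ± 509 FPKM in the clrB deletion and 616 ± 40.9 FPKM in the wild type (SD, n = 3 each). That is 1.47-fold higher, but without replicate 2 of the clrB deletion the log2 change was -0.01. In size of fall cdt-c lay between Bgl2 and Cel6A, and CdtD (4.20-fold) lay below all 8 called genes. The smallest fold of these 8 was 8.87, for PDE_06439, a putative endoglucanase whose orthology label is xyloglucan-specific. These falls were 7.20-fold for CdtD and 14.2-fold for PDE_06439 without replicate 2 of the clrB deletion.

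In the rcoA deletion 8 of the 9 cellulose use genes were called lower and 1 higher, beside 34.1% and 30.4% of all tested genes. The median log2 change of the list was -2.30, against -0.04 over all tested genes. Bgl2 fell 2.94-fold, to 337 ± 39.5 FPKM, and the gene that rose was PDE_06439, which carries the xyloglucan-specific label, 4.54-fold. The falls of cdt-c and cdt-g, 1.59-fold and 1.36-fold, were smaller than the smallest of these 8, which was 2.65-fold for Bgl1. Between the deletions 8 were lower in the clrB deletion and 1, Bgl1, was higher, beside 24.9% and 35.2% of all tested genes. The median log2 change of the list there was -3.19, against 0.11 over all tested genes. The list was drawn up with earlier results of these data known, so its counts are a description.

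Among the regulators, ClrB fell to 63.3 ± 6.12 FPKM in the rcoA deletion, against 185 ± 19.3 FPKM in the wild type (SD, n = 3 each), with a log2 change of -1.53 (SE 0.11, limma adjusted p = 3.17e-06). XlnR (PDE_07674), an activator of xylanase and cellulase genes, fell to 31.9 ± 0.553 FPKM in the rcoA deletion, against 69.0 ± 8.57 FPKM in the wild type. CreA (PDE_03168), the carbon catabolite repressor, rose to 772 ± 16.4 FPKM in the rcoA deletion, against 335 ± 27.4 FPKM in the wild type. In the clrB deletion XlnR was also called lower, at 49.4 ± 8.55 FPKM (log2 change -0.48, limma adjusted p = 0.036). That call was lost under 8 of 19 alternatives. CreA was not called there (limma adjusted p = 0.13). In the rcoA deletion ClrB, XlnR and CreA moved in the same libraries as cdt-c and cdt-g. Their part in the lower transporter levels of that strain was not tested.

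A wider list held the 68 genes whose description names a sugar transporter, the 3 members included, and 63 of them were tested. Of the 68, 5 are described as nucleotide sugar carriers. The search terms also allowed quinate permeases and inositol transporters, so the list is wider than sugar uptake. In the clrB deletion 13 were called lower, 7 higher and 43 were not called, beside 8.32% of all tested genes called lower and 13.5% higher. The median log2 change of the list was -0.03, against 0.08 over all tested genes. These falls and rises are ranked within the list. cdt-c was the largest fall, followed by PDE_06576, described as an alpha-glucoside symporter, and PDE_04857, described as a sugar symporter among other labels. PDE_06576 had 10.09, 20.32 and 11.29 FPKM in the clrB deletion, against 207.08 to 371.45 FPKM in the wild type, and fell 20.8-fold. PDE_04857 fell 11.4-fold, or 27.0-fold without replicate 2 of the clrB deletion.

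Among called members whose mean reached 10 FPKM in 1 strain, the largest rises in the clrB deletion were those of PDE_03475, PDE_04131 and PDE_01388, all described as sugar symporters. Below that level PDE_00900 and PDE_09628 rose more than the last 2 of these, each with a log2 change of 1.17, against 1.07 for PDE_04131 and 0.98 for PDE_01388. PDE_04131 rose to 17.5 ± 1.68 FPKM in the clrB deletion, against 7.84 ± 0.591 FPKM in the wild type (SD, n = 3 each). PDE_03475 read 717.93, 19.36 and 318.98 FPKM in the clrB deletion, against 10.03 to 22.54 FPKM in the wild type. Replicate 2 lay within the wild type range there. The log2 change was 3.46 with all libraries (limma adjusted p = 0.0470) and 4.98 without replicate 2 of the clrB deletion (limma adjusted p = 2.54e-05). The call was lost under 15 of 19 alternatives. These were the removal of any 1 library other than replicate 2 of the clrB deletion, a pseudocount of 5, no filter on low values, equal median ratios, quantile normalization, no intensity trend, the 2 strains alone and the replicate block. PDE_01388 was 2.32-fold higher, or 1.67-fold without replicate 2 of the clrB deletion. Its call was lost with the 2 strains alone and without any 1 of the wild type replicates 1, 2 and 3. The count of 20 called members was 29 without replicate 2 of the clrB deletion and between 10 and 13 without clrB deletion replicate 1 or 3, rcoA deletion replicate 1 or 2, or any wild type replicate.

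In the rcoA deletion 27 of the 63 were called lower, 14 higher and 22 were not called. Of all tested genes, 34.1% were called lower and 30.4% higher. The median log2 change of the list was -0.32, against -0.04 over all tested genes. The largest falls were 6.92-fold for PDE_08035, to 31.3 ± 0.835 FPKM, 5.55-fold for PDE_00611 and 5.34-fold for PDE_01850, all described as sugar symporters. The largest rises were 22.4-fold for PDE_03475 and 9.48-fold for PDE_00197, with PDE_03140 at 30.5 ± 5.03 FPKM in the rcoA deletion and 0.717 ± 0.248 FPKM in the wild type. The cellodextrin transporters were thus not among the transporters that changed most in this strain.

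Between the deletions 21 of the 63 were lower and 23 higher in the clrB deletion, and 19 were not called. Of all tested genes, 24.9% were called lower and 35.2% higher. Among the 63, cdt-c fell most, followed by PDE_03140 and PDE_03311. PDE_03311 had 26.3 ± 18.3 FPKM in the clrB deletion, against 279 ± 18.4 FPKM in the rcoA deletion (SD, n = 3 each). It was 10.6-fold lower, or 17.8-fold lower without replicate 2 of the clrB deletion, whose libraries read 14.55, 47.40 and 16.86 FPKM. PDE_01850, PDE_00611 and PDE_00652 were 5.63-fold, 4.95-fold and 4.74-fold higher in the clrB deletion. cdt-c made up 0.112% to 0.184% of the summed FPKM of the 68 genes in the clrB deletion, 18.0% to 20.6% in the rcoA deletion and 15.8% to 20.8% in the wild type. CdtD made up 1.66% to 3.45% of this sum in the clrB deletion, 6.29% to 6.33% in the rcoA deletion and 6.23% to 8.45% in the wild type. For cdt-g the share was 0.251% to 0.354% in the clrB deletion, 0.231% to 0.267% in the rcoA deletion and 0.198% to 0.234% in the wild type.

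**Figure D4:**
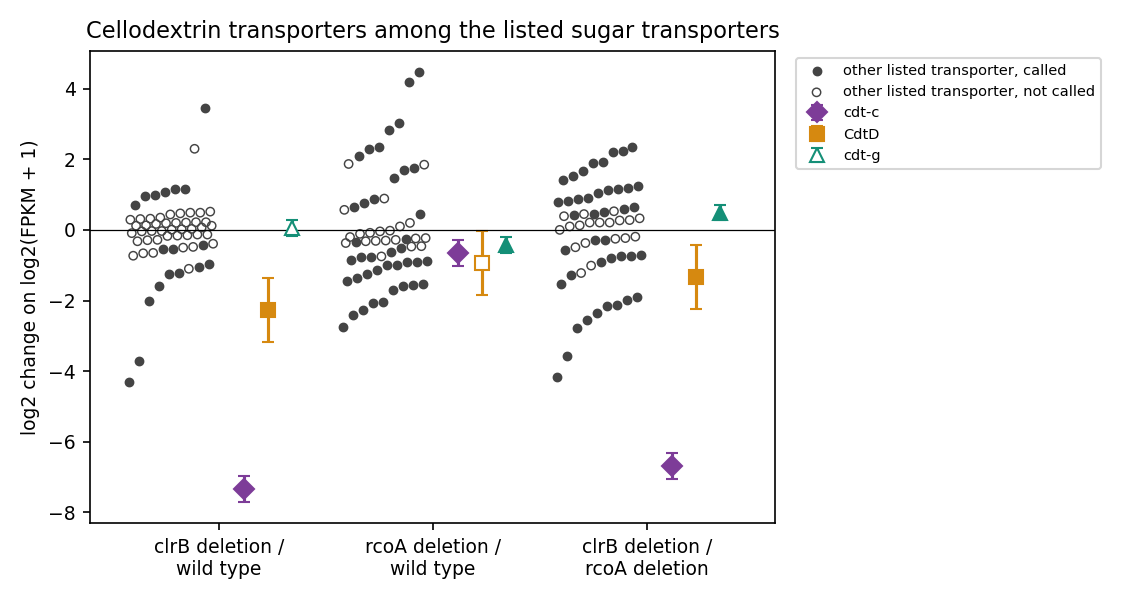
Log2 change on the log2(FPKM + 1) scale of the 63 tested sugar transporters in each comparison; circles are the other listed genes, filled where called, and coloured symbols are cdt-c, CdtD and cdt-g with 95% intervals, open where not called. cdt-c lies at -7.34 and -6.69 in the comparisons of the clrB deletion, below every other listed transporter, and at -0.65 in the rcoA deletion, within the range of the list.

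The genes with the most similar profiles differed between the 3 transporters. Similarity was measured as the root mean square difference of log2(FPKM + 1) over the 9 libraries, after centring each gene on its mean, among genes with a mean of at least 10 FPKM. The nearest to cdt-c was ClrB, at 0.414, whose absence in 3 of the libraries is the deletion itself. Bgl2 followed at 0.607, then PDE_03927 with no functional description at 0.831, the cellulose-binding domain protein PDE_02102 at 0.880 and the endoglucanase PDE_00507 at 1.11. CdtD stood at place 48 of 7242 from cdt-c, at 2.50. From CdtD, cdt-c stood at place 7119 at the same distance, so place 48 does not mark a shared profile. The 5 genes nearest to cdt-c were the same without replicate 2 of the clrB deletion. By size of fall in the clrB deletion against the wild type they were 4th, 6th, 7th, 8th and 12th, and cdt-c was 5th. In replicate 2 cdt-c stood at 0.991 times the mean of replicates 1 and 3. A set chosen for so large a fall could hardly change without that library, so its stability is no separate evidence of a shared profile.

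The nearest to CdtD were 4 carbohydrate-active enzymes and an acid phosphatase, none of them on the cellulose use list. They were an alpha-mannosyltransferase (PDE_09901) at 0.236, the phosphatase PDE_03399 at 0.255, an exo-beta-1,3-galactanase (PDE_09279) at 0.277, an alpha-galactosidase (PDE_02514) at 0.289 and a beta-xylosidase (PDE_09710) at 0.336, all as described. Each of the 5 was highest in replicate 2 among the clrB deletion libraries, as were CdtD and 35.3% of all tested genes. Replicate 2 was among the libraries used to choose the 5, so that shared peak follows in part from the choice. PDE_02514, for instance, had 20.48, 103.46 and 19.50 FPKM in the clrB deletion, against 162.91 to 255.73 FPKM in the wild type. Of the 5, 3 remained among the 5 nearest without replicate 2 of the clrB deletion, and PDE_09279 and PDE_02514 stood at places 7 and 9.

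The nearest to cdt-g were genes with flat profiles, a phosphate transporter (PDE_07679) at 0.049, PDE_08844 at 0.058, PDE_02037 at 0.067, the kinase PDE_02044 at 0.071 and PDE_04816 at 0.080. Each of these 5 was called lower in the rcoA deletion, as were 34.1% of all tested genes, and not called in the clrB deletion. cdt-g had the same calls. Since the 5 were chosen for nearness to it over these libraries, the shared calls follow from that choice. The call of PDE_07679 in the rcoA deletion was lost with quantile normalization. For a gene that varies little, many genes lie at a short distance, and without replicate 2 of the clrB deletion 2 of the 5 remained, PDE_07679 and PDE_08844.

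**Figure D5:**
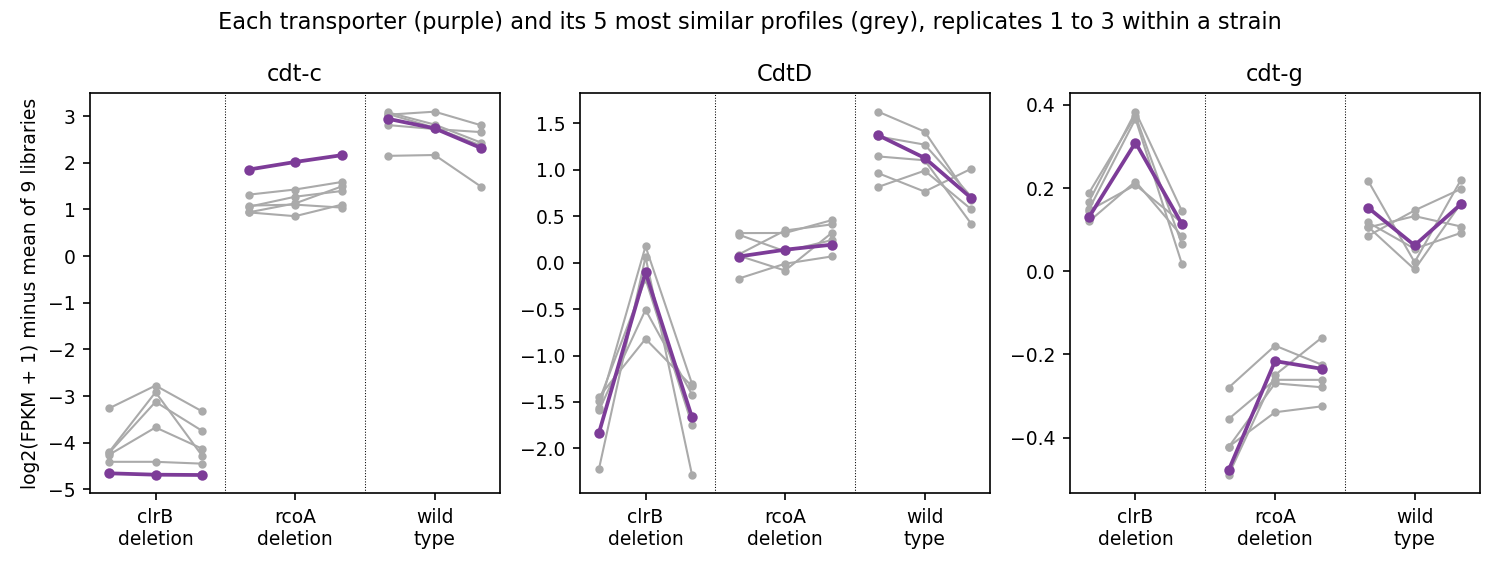
Profiles of cdt-c, CdtD and cdt-g (purple) and of the 5 genes nearest to each (grey) over the libraries of the clrB deletion, the rcoA deletion and the wild type, as log2(FPKM + 1) minus the gene's mean over the 9 libraries; each panel has its own scale. The cdt-c profile spans over 7 log2 units, that of CdtD peaks in replicate 2 within the clrB deletion, and that of cdt-g stays within 0.8 log2 units.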

How the data were processed

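The authors' deposited table gave FPKM to 2 decimals for 9907 genes, per the file headers; what the values were aligned to, with which tool, and how they were counted or length-scaled is not given in the sources used here. Per the labels' protocols, oligo(dT)-selected RNA was made into cDNA and cut with NlaIII and MmeI into short tags. Another 3 columns of per-library values matched no sample used here and were not analysed. Total depth per library is unknown; summed FPKM ranged from 776855 to 820648, with 9597 to 9724 genes above 0. None of the identifiers (0 of 9907) matched the 9964 genes of the reference table (assembly ASM172317v3), so no coordinates or sequences are given.

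Genes with a mean of at least 1 FPKM over the 9 libraries were tested on log2(FPKM + 1) in 1 fit with a mean for each strain and an intensity trend (limma 3.58.1, R 4.3.3), with two-sided tests and Benjamini-Hochberg adjustment; the script was tested on simulated data. This scale understates changes of low genes. Ratios between transporters were compared with exact permutation tests (scipy 1.17.1). Named are the 3 transporters, the 5 nearest profiles of each, the 3 largest called rises and falls of the sugar transporter list with at least 10 FPKM in 1 strain, the cellulose use list, regulators and genes with neighbouring identifiers. The members, lists and rules were chosen with earlier results of these data known. Alternatives were other pseudocounts (0.1 and 5), filters (none and 5 FPKM), scalings, empirical Bayes settings, the compared strains alone, a replicate block and each library left out; those on the ratios, the nearest profiles and other named genes were added after the data were seen.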

Additional observations from a re-analysis of the deposited data

How the results depend on the processing

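Over 19 alternatives, cdt-c kept its call and direction in all 3 comparisons, and cdt-g did so in both comparisons in which it was called. The fall of CdtD in the clrB deletion was called under all 19 (log2 change -2.81 to -1.95). Its change in the rcoA deletion, not called in the fit reported (adjusted p = 0.0655), was called in 3 of 19: with the 2 strains alone (log2 change -0.93, adjusted p = 0.00147) and without clrB deletion replicate 1 or 2. Leaving out 1 library at a time gave changes from -1.12 to -0.78 there, and over the 19 the adjusted p ranged from 0.000606 to 0.177. CdtD between the deletions ranged from -1.88 to -1.02 with 1 library left out, and its call was lost without clrB deletion replicate 1 or 3.

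For cdt-g in the clrB deletion, the change of 0.06 became -0.01 with equal median ratios and -0.01 with quantile normalization, and lay between -0.0041 and 0.09 with 1 library left out, turning sign without clrB deletion replicate 2. The 1987 genes called in the clrB deletion against the wild type became 1265 with the 2 strains alone and 724 to 3409 with 1 library left out, and the 20 sugar transporters became 10 and 10 to 29. The share of calls that were higher in that comparison, 61.9%, was 49.4% with equal median ratios and 49.2% with quantile normalization; between the deletions 58.6% became 45.3% with quantile normalization, which moved the median change of all genes from 0.108 to -0.052 and that of the sugar transporters from 0.21 to -0.19. The cause of these shifts was not tested.

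With the replicate number as a block, no call of cdt-c, CdtD or cdt-g changed (CdtD in the rcoA deletion: adjusted p = 0.0609), the rise of PDE_03475 in the clrB deletion was no longer called (adjusted p = 0.0537), the sugar transporters called were 15, 45 and 42 in place of 20, 41 and 44, and 1725, 5803 and 5380 genes were called in place of 1987, 5866 and 5470. In most pairs same-numbered libraries did not deviate together. Of 9 pairs, 2 had a correlation of deviations over 0.1, with a range from -0.161 to 0.341. Both involved replicate 3 of the clrB deletion, at 0.341 with wild type replicate 3 and 0.202 with rcoA deletion replicate 3. Replicate 2 of the clrB deletion and wild type replicate 1, of unlike number, stood at 0.23. Without counts, the depth behind low values is unknown.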

Other observations

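Genes with identifiers next to those of the transporters were examined, with 2 on each side; that the identifiers follow the order on the chromosome was not checked, since no annotation of this build was used. Beside cdt-c, PDE_00606, with no functional description, fell to 2.51 ± 0.389 FPKM in the clrB deletion and 1.85 ± 0.565 FPKM in the rcoA deletion, against 8.0 ± 2.39 FPKM in the wild type (SD, n = 3 each). PDE_00608 was also called lower in both, at 22.0 ± 0.618 FPKM in the clrB deletion and 12.9 ± 0.476 FPKM in the rcoA deletion, against 30.5 ± 1.82 FPKM in the wild type. Neither reached the 176-fold fall of cdt-c. PDE_00609 was called lower in the rcoA deletion, at 34.5 ± 1.0 FPKM against 44.2 ± 4.8 FPKM in the wild type, and not called in the clrB deletion, at 53.2 ± 3.69 FPKM (adjusted p = 0.0832, or 0.0388 without replicate 2 of the clrB deletion). PDE_00605 was listed at 0 in both deletions and was not tested.

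Beside CdtD, the putative endo-beta-1,4-xylanase PDE_00752 had 1.71, 5.63 and 2.94 FPKM in the clrB deletion and 27.46, 26.72 and 31.81 FPKM in the rcoA deletion, against 6.60 to 8.68 FPKM in the wild type. It was 8.36-fold lower in the clrB deletion than in the rcoA deletion (log2 change -2.84, SE 0.27, limma adjusted p = 2.71e-05), or 12.3-fold lower without replicate 2 of the clrB deletion. PDE_00755, with no functional description, fell 7.49-fold to 4.64 ± 1.48 FPKM in the rcoA deletion, against 34.7 ± 5.8 FPKM in the wild type (limma adjusted p = 1.44e-05), and was not called in the clrB deletion, at 24.7 ± 5.94 FPKM. PDE_00751 rose 2.78-fold to 35.9 ± 2.23 FPKM in the rcoA deletion, against 12.9 ± 0.806 FPKM in the wild type, and was also called higher in the clrB deletion, at 17.7 ± 2.25 FPKM, a call lost under 7 of 19 alternatives. PDE_00754, near 1 FPKM, was not called in any comparison. Beside cdt-g, the vacuolar serine protease PDE_09396 was not called in any comparison, at 1734 ± 212 FPKM in the clrB deletion, 1823 ± 35.1 FPKM in the rcoA deletion and 1783 ± 166 FPKM in the wild type. PDE_09397 was called higher in both deletions, at 14.5 ± 1.98 FPKM in the clrB deletion and 16.7 ± 1.56 FPKM in the rcoA deletion, against 9.79 ± 1.73 FPKM in the wild type, the first call being lost under 7 of 19 alternatives. PDE_09393 and PDE_09394 were called between the deletions and in neither against the wild type, and those calls were lost under 5 of 18 and 9 of 19 alternatives.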
